A study of Mus musculus with 10 samples.

Results

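The genes described here encode the general splicing machinery and its best-known partners: the heterogeneous nuclear ribonucleoproteins (hnRNPs), the SR proteins, the core proteins of the small nuclear ribonucleoproteins (snRNPs) and the subunits of splicing factor 3 (SF3). They were taken by symbol, as every gene whose name began with Hnrnp, Hnrp, Srsf, Sfrs, Snrp, Sf3a or Sf3b and whose level averaged at least 1 FPKM (fragments per kilobase of transcript, scaled to the mapped fragments of a library) in the 6 RNA-seq libraries. This gave 51 genes of the 11228 listed, and no matching symbol was below the minimum. There were 20 hnRNP genes, 11 of the SR family, 12 snRNP genes and 8 SF3 genes. The libraries came from mouse myotubes, multinucleate cells that arise by fusion of myoblasts, differentiated in vitro for 2 days. Charme, a muscle-specific long non-coding RNA, was depleted with the gapmer set named GAP-2 (2 libraries, A and B) or with the set named GAP-2/3 (2 libraries), and the controls received GAP-scr (2 libraries). A gapmer is an antisense oligonucleotide that directs RNase H to a transcript. The labels do not say whether the GAP-2 oligonucleotide is part of GAP-2/3, and the level of Charme is not analysed here, so the groups rest on the labels. Both gapmer groups were set against the same pair of GAP-scr libraries.

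Splicing removes introns in a series of steps that begins when the U1 snRNP pairs with the start of an intron and the U2 snRNP, held by SF3a and SF3b, pairs with its branch point. Each of these particles is built on a ring of Sm proteins. SR proteins carry RNA-binding domains and a tail rich in arginine and serine, and commonly favour the use of nearby exons. hnRNPs coat nascent transcripts and often act against exon use, and together these families set many of the exon choices that change as muscle differentiates. Many SR and hnRNP genes also limit their own messages through exons that lead to decay, a level of control that an FPKM per gene does not separate from total message.

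The median FPKM of a library lay between 11.9 and 13.3, and sequencing depth is unknown because FPKM does not keep it. Rn45s, the ribosomal RNA precursor, was at 4090 FPKM in GAP-2 replicate A and 3387 FPKM in GAP-scr replicate A, against 93.2 to 176 FPKM in the other 4 libraries. All 12 myotube markers examined were listed, with summed levels of 7923 to 9040 FPKM in the 4 gapmer libraries and 12980 and 13780 FPKM in the GAP-scr libraries, and 10 of the 12 were lower in the mean of both gapmer groups. All 10 proliferation markers were listed as well, with sums of 66.9 and 77.6 FPKM in GAP-2, 106 and 91.5 FPKM in GAP-2/3, and 59.6 and 78.6 FPKM in GAP-scr. Of these, 0 passed the test in GAP-2 and 4 were higher in GAP-2/3, where 28.0% of all genes tested were higher. The part of these markers in the results below was not tested. Of other cell types, 0 of 4 endothelial markers, 1 of 5 adipocyte markers, 2 of 5 macrophage markers and 4 of 6 fibroblast markers were listed, and the macrophage sum was 5.25 to 7.70 FPKM in the gapmer libraries, against 3.12 and 4.04 FPKM in GAP-scr. In the mean of both gapmer groups 2 macrophage markers were higher, 2 fibroblast markers were higher and 1 lower, 2 of 4 listed myoblast markers were higher and 2 lower, and 3 of 4 smooth muscle markers were listed and lower. Over all genes tested 24.5% were higher and 9.57% lower in that mean. The macrophage marker Cd68 was near the floor, at 0.962 and 0.834 FPKM in GAP-2/3 and 0.374 and 0.917 FPKM in GAP-scr, which overlapped. The smooth muscle sum was 1362 and 1409 FPKM in GAP-2, 1592 and 1564 FPKM in GAP-2/3, and 2089 and 2341 FPKM in GAP-scr. The myoblast sum was 364 and 362 FPKM in GAP-2, 329 and 383 FPKM in GAP-2/3, and 494 and 519 FPKM in GAP-scr, and Pax7 was not listed. In a bulk library fewer cells of a type and less RNA per cell cannot be told apart. Separate cultures are not stated for the biological replicates, and the p-values therefore rest on a spread between libraries that may be technical.

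The machinery was abundant. Of the 51 genes all but Snrpn had a mean level above 10 FPKM, and the median gene had 69.0 FPKM. The median level was 88.0 FPKM for the hnRNP family, 57.8 for the SR family, 80.2 for the snRNP proteins and 52.1 for the SF3 subunits. Summed over all 51 genes the level was 5156 and 5368 FPKM in GAP-2, 5747 and 5416 FPKM in GAP-2/3, and 4674 and 4838 FPKM in GAP-scr. All 4 gapmer libraries lay above both GAP-scr libraries. As a share of all listed FPKM the sum was 0.901% and 0.918% in the GAP-2 libraries, 0.952% and 0.917% in the GAP-2/3 libraries, and 0.841% and 0.837% in the GAP-scr libraries.

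The families differed in how their sums moved. The hnRNP sum was 2562 and 2709 FPKM in GAP-2, 2809 and 2628 FPKM in GAP-2/3, and 2223 and 2300 FPKM in GAP-scr. The SR sum was 859 and 847 FPKM in GAP-2, 974 and 938 FPKM in GAP-2/3, and 794 and 741 FPKM in GAP-scr. In both of these families every gapmer library was above both controls. The snRNP sum was 1361 and 1420 FPKM in GAP-2, 1575 and 1454 FPKM in GAP-2/3, and 1287 and 1430 FPKM in GAP-scr, and here the GAP-2 libraries overlapped the controls. The SF3 sum was 374 and 392 FPKM in GAP-2, 389 and 396 FPKM in GAP-2/3, and 370 and 367 FPKM in GAP-scr, where every gapmer library was again above both controls, by a narrow margin.

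**Figure D1:**
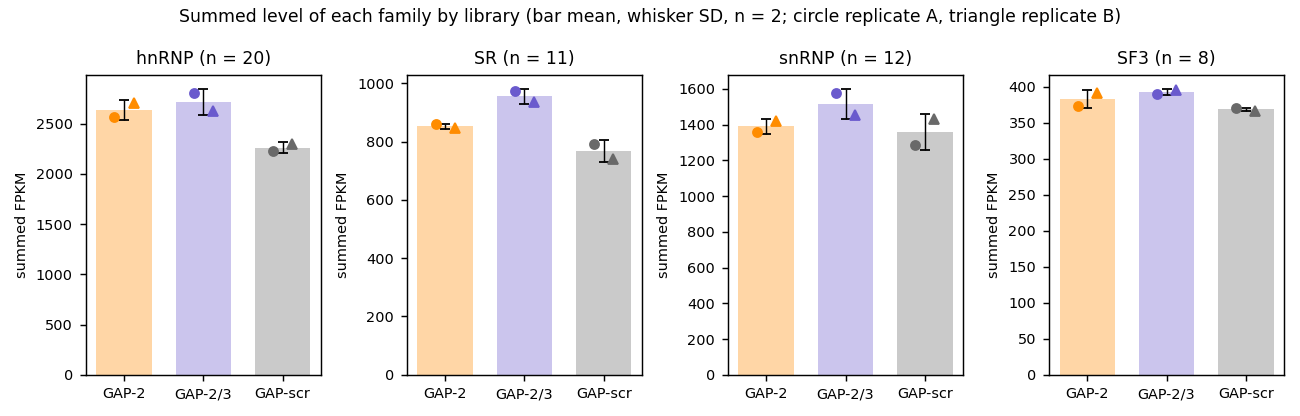
Summed FPKM of the hnRNP, SR, snRNP and SF3 genes in each library, with GAP-2 and GAP-2/3 left of GAP-scr; bars are means, whiskers SD (n = 2), circles replicate A and triangles replicate B. The hnRNP and SR sums of all 4 gapmer libraries lie above both GAP-scr libraries, as do the SF3 sums by a narrower margin, while the snRNP sums of GAP-2 overlap those of GAP-scr. As a share of all listed FPKM, not drawn here, the SF3 sums overlap those of GAP-scr too.

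Gene by gene, 15 of the 51 were higher and 1 was lower in the mean of both gapmer groups against GAP-scr (29.4% and 1.96%; limma on log2(FPKM + 1) across all genes, Benjamini-Hochberg adjusted p of at most 0.05). Over all 10993 genes tested 24.5% were higher and 9.57% lower, so the share called higher was near the background and the share called lower was below it. By family, 8 of 20 hnRNP genes and 4 of 11 SR genes were higher and 0 lower, 2 of 12 snRNP genes were higher and 0 lower, and 1 of 8 SF3 genes was higher and 1 lower. The median change was 0.20 for the hnRNP family, 0.24 for the SR family, 0.09 for the snRNP proteins and -0.01 for the SF3 subunits, against 0.10 for all genes tested, on the log2(FPKM + 1) scale used for every change below. Differences between families were described and not tested. The counts depended on scaling: with libraries brought to a common median 9 of the 51 were higher and 5 lower, and with quantile normalization 11 and 3. Over all 10993 genes tested the common median gave 1618 higher and 1556 lower, and quantile normalization 1568 and 1695. Those scalings moved the median of all genes by 0.08 and 0.10 in this contrast, and by 0.10 and 0.12 in GAP-2/3, so part of every positive value below is shared with the table as a whole. When GAP-2 replicate B was left out 9 were higher and 0 lower, and the same counts came without replicate A of GAP-2/3.

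**Figure D2:**
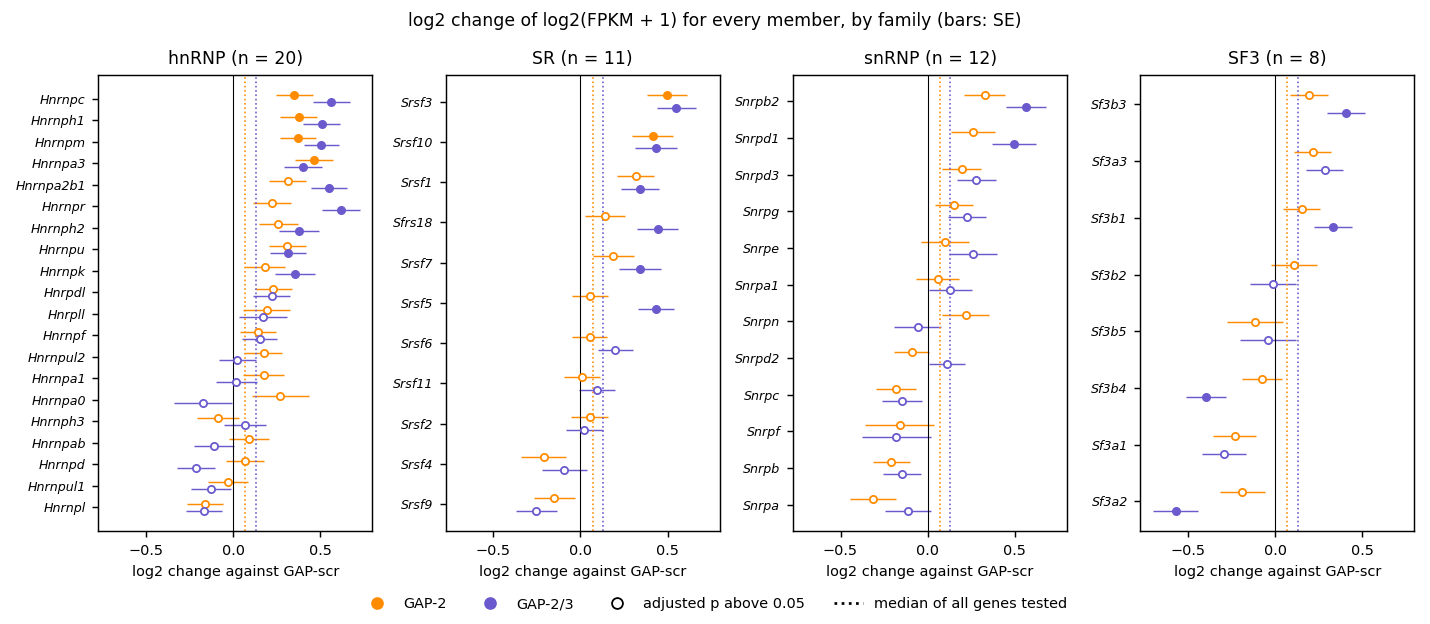
Change of each of the 51 genes against GAP-scr on the log2(FPKM + 1) scale, by family, for GAP-2 and GAP-2/3; bars are SE, filled points passed an adjusted p of 0.05 in limma, and dotted lines mark the median of all genes tested. Filled points gather on the positive side in the hnRNP and SR families, whereas the SF3 subunits spread from -0.57 to 0.41 in GAP-2/3.

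Set apart, the gapmer groups gave unequal counts. GAP-2 had 6 of the 51 genes higher and 0 lower (11.8% higher), against 10.4% higher and 4.18% lower over all genes tested. GAP-2/3 had 19 higher and 2 lower (37.3% and 3.92%), against a background of 28.0% higher and 11.3% lower. The 6 genes higher in GAP-2 were Hnrnpa3, Hnrnpc, Hnrnph1, Hnrnpm, Srsf3 and Srsf10, and all 6 were also higher in GAP-2/3. In GAP-2/3 the families had 9 hnRNP, 6 SR, 2 snRNP and 2 SF3 genes higher, and 2 SF3 genes lower. With a common median GAP-2 had 1 gene higher and GAP-2/3 had 9 higher and 5 lower, and with quantile normalization the counts were 4 and 0 in GAP-2 and 13 and 5 in GAP-2/3. Over all 10993 genes tested the common median gave 708 higher and 648 lower in GAP-2, and 1928 and 1789 in GAP-2/3. Quantile normalization gave 692 and 687 in GAP-2, and 1820 and 1960 in GAP-2/3. By family the common median left 5 hnRNP, 3 SR, 1 snRNP and 0 SF3 genes higher in GAP-2/3, with 1 hnRNP, 1 SR, 0 snRNP and 3 SF3 genes lower. The GAP-2 count was 0 without either GAP-2 library, 2 without either GAP-2/3 library and 10 without GAP-scr replicate A, and the GAP-2/3 count of higher genes was 5 without replicate A of that group and 12 without its replicate B. With the pair high in Rn45s left out, that is replicate A of GAP-2 and of GAP-scr, 3 were higher and 1 lower in GAP-2 and 14 higher and 3 lower in GAP-2/3. Over all genes tested this left 1116 higher and 395 lower in GAP-2, and 2841 and 1118 in GAP-2/3. The part of Rn45s in these counts was not tested beyond that.

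**Figure D3:**
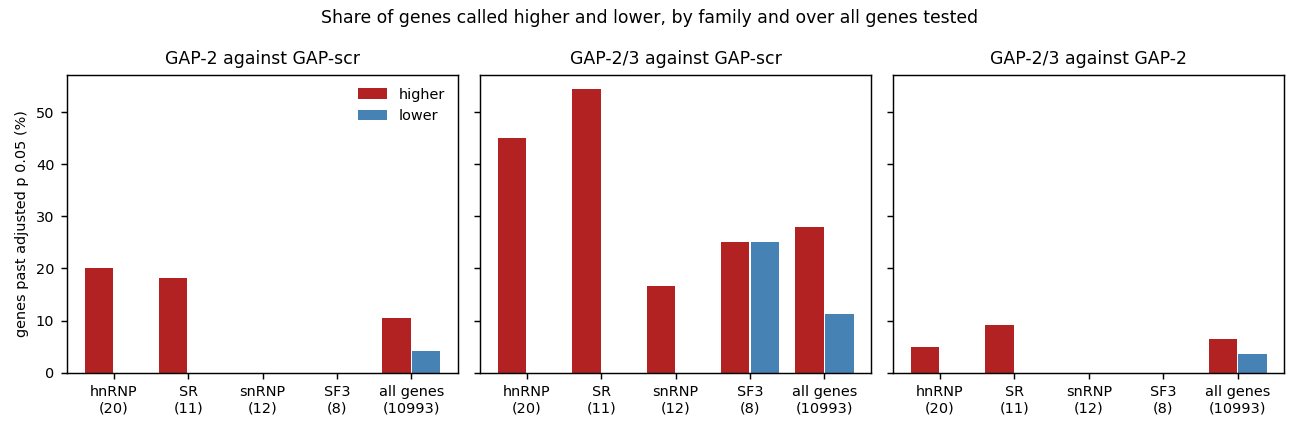
Percentage of genes past an adjusted p of 0.05 in limma, higher and lower, in the hnRNP, SR, snRNP and SF3 families and over all genes tested, for GAP-2 against GAP-scr, GAP-2/3 against GAP-scr and GAP-2/3 against GAP-2; the number of genes stands in parentheses under each name. In GAP-2/3 54.5% of the SR genes, 45% of the hnRNP genes, 25% of the SF3 genes and 16.7% of the snRNP genes are higher, beside 28.0% of all genes. There 25% of the SF3 genes are lower, beside 11.3% of all genes. With a common median 3 SR and 5 hnRNP genes are higher, beside 1928 of all 10993 genes tested.

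Among the hnRNPs the C, K, M and R genes were all higher in GAP-2/3. Hnrnpc, whose protein binds runs of uridine in introns, had 98.3 and 101 FPKM in GAP-2, 122 and 110 FPKM in GAP-2/3, and 75.3 and 80.5 FPKM in GAP-scr. Hnrnpm, a regulator of alternative exons, had 109 and 116 FPKM in GAP-2, 124 and 123 FPKM in GAP-2/3, and 86.0 and 87.4 FPKM in GAP-scr. In both genes every gapmer library exceeded every control, and GAP-2/3 stood above GAP-2. Hnrnpc rose by 0.35 ± 0.11 in GAP-2 (SE; adjusted p = 0.0475, limma) and by 0.56 ± 0.11 in GAP-2/3 (adjusted p = 0.00227, limma). Hnrnpm rose by 0.37 ± 0.10 in GAP-2 (adjusted p = 0.0306, limma) and by 0.51 ± 0.10 in GAP-2/3 (adjusted p = 0.00298, limma). With a common median both GAP-2 calls were lost (adjusted p = 0.13 for Hnrnpc and 0.0802 for Hnrnpm, limma). That of Hnrnpc was also lost with quantile normalization (adjusted p = 0.0629, limma). Both GAP-2 calls were lost without either GAP-2 library, for Hnrnpm at an adjusted p of 0.145 without replicate A and 0.302 without replicate B (limma).

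Hnrnpk, a poly(C)-binding protein and the hnRNP gene with the next highest level after Hnrnpa2b1, had 317 and 372 FPKM in GAP-2, 403 and 371 FPKM in GAP-2/3, and 298 and 306 FPKM in GAP-scr. Its lowest gapmer library lay just above the controls. It rose by 0.35 ± 0.11 in GAP-2/3 (adjusted p = 0.0291, limma) and had a change of 0.18 ± 0.11 in GAP-2 that did not pass. The GAP-2/3 call was lost with a common median and with quantile normalization. Hnrnpk shares part of its span with Rmi1, which was listed at 6.37 to 9.74 FPKM. The sources used here do not give the strand used in counting, and reads of overlapping genes may be shared.

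Within the A/B and D group, Hnrnpa2b1 was the most abundant of the 51 genes. Hnrnpa2b1 encodes a partner of hnRNP A1 in the repression of exons, and it had 354 and 374 FPKM in GAP-2, 437 and 420 FPKM in GAP-2/3, and 305 and 281 FPKM in GAP-scr. It rose by 0.55 ± 0.11 in GAP-2/3 (adjusted p = 0.00245, limma), with 0.31 ± 0.11 in GAP-2 (adjusted p = 0.0667, limma). Its close relative Hnrnpa3 had 93.2 and 100 FPKM in GAP-2, 97.4 and 87.7 FPKM in GAP-2/3, and 67.2 and 72.6 FPKM in GAP-scr. Here it was GAP-2 that stood slightly higher, with 0.46 ± 0.11 in GAP-2 (adjusted p = 0.0173, limma) and 0.40 ± 0.11 in GAP-2/3 (adjusted p = 0.0141, limma). With a common median both calls were lost (adjusted p = 0.0534 in GAP-2 and 0.0821 in GAP-2/3, limma). The GAP-2 call was lost without either GAP-2 library (adjusted p = 0.0772 and 0.193, limma).

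The other members of that group did not pass in any contrast. Hnrnpa1, the best studied repressor of exon use, had 369 and 364 FPKM in GAP-2, 341 and 316 FPKM in GAP-2/3, and 293 and 358 FPKM in GAP-scr, and its GAP-2/3 libraries lay within the control range. Hnrnpd, also called AUF1 and known for binding AU-rich elements, had 18.6 and 17.99 FPKM in GAP-2, 14.8 and 14.9 FPKM in GAP-2/3, and 17.3 and 17.5 FPKM in GAP-scr. GAP-2 was above and GAP-2/3 below the controls in every library, but the difference between the gapmer groups, -0.28 ± 0.11, did not pass (adjusted p = 0.124, limma). With a common median Hnrnpd was called lower in GAP-2/3. Hnrnpa0, Hnrnpab and Hnrpdl had changes between -0.17 and 0.27 in either gapmer group. Hnrnpa0 was lower in GAP-2/3 than in GAP-2 without overlap, at -0.44 ± 0.16, which did not pass (adjusted p = 0.113, limma). In size this was the largest difference between the gapmer groups among the 51 genes. Processed pseudogenes resembling Hnrnpa1, Hnrnpa3 and several Sm genes are known, and the sources used here do not say how such reads were assigned, so their levels are uncertain.

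The F/H group binds runs of guanosine. Hnrnph1 had 191 and 210 FPKM in GAP-2, 227 and 212 FPKM in GAP-2/3, and 158 and 150 FPKM in GAP-scr, without overlap between gapmer and control libraries. It rose by 0.38 ± 0.11 in GAP-2 (adjusted p = 0.0359, limma) and by 0.51 ± 0.11 in GAP-2/3 (adjusted p = 0.00382, limma). The GAP-2 call was lost with a common median (adjusted p = 0.097, limma). It was also lost without any single library other than GAP-scr replicate A. Its X-linked relative Hnrnph2 rose by 0.38 ± 0.11 in GAP-2/3 (adjusted p = 0.0216, limma), with 0.26 ± 0.11 in GAP-2. The GAP-2/3 call of Hnrnph2 was lost under both scalings. Hnrnpf, at 252 FPKM on average the most abundant of the group, had changes of 0.14 ± 0.10 in GAP-2 and 0.15 ± 0.10 in GAP-2/3. Hnrnph3 had -0.09 ± 0.12 in GAP-2 and 0.07 ± 0.12 in GAP-2/3. Neither gene passed.

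Of the U group, Hnrnpu, a nuclear scaffold protein that binds many long non-coding RNAs, had 120 and 124 FPKM in GAP-2, 126 and 119 FPKM in GAP-2/3, and 102 and 93.9 FPKM in GAP-scr. The gapmer libraries lay close together and above both controls. It rose by 0.32 ± 0.10 in GAP-2/3 (adjusted p = 0.0328, limma) and had nearly the same change in GAP-2, 0.31 ± 0.10, which did not pass (adjusted p = 0.0663, limma). Under both scalings the GAP-2/3 call was lost. Hnrnpu overlaps Cox20, listed at 51.5 and 49.0 FPKM in GAP-2, 70.7 and 58.9 FPKM in GAP-2/3, and 33.6 and 23.9 FPKM in GAP-scr. The part of Cox20 reads in the Hnrnpu values was not tested. Hnrnpul1 and Hnrnpul2, its paralogs, and Hnrnpl and Hnrpll, which bind CA-rich elements, passed in no contrast. Hnrnpl was below both controls in every gapmer library, with 84.7 and 87.6 FPKM in GAP-2, 85.4 and 86.5 FPKM in GAP-2/3, and 91.6 and 102 FPKM in GAP-scr, and a change of -0.16 ± 0.10 in GAP-2 and -0.17 ± 0.10 in GAP-2/3.

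In the SR family, Srsf3 had the largest change of the 51 genes in the mean of both gapmer groups. Srsf3 encodes the smallest SR protein, which also takes part in the export of messages, and had 130 and 130 FPKM in GAP-2, 142 and 129 FPKM in GAP-2/3, and 99.2 and 85.5 FPKM in GAP-scr. All gapmer libraries exceeded both controls, and the groups GAP-2 and GAP-2/3 overlapped. Srsf3 rose by 0.50 ± 0.11 in GAP-2 (adjusted p = 0.0145, limma) and by 0.55 ± 0.11 in GAP-2/3 (adjusted p = 0.00339, limma), which is 1.41-fold in GAP-2 and 1.46-fold in GAP-2/3 on that scale. In the mean of both it rose by 0.52 ± 0.10 (adjusted p = 0.00259, limma) and passed under all 16 alternatives, between 0.42 and 0.63. Among these the threshold of 0.1 on the same fit was bound to pass. In the single groups the call was lost without either GAP-2 library for GAP-2 (adjusted p = 0.093 and 0.109, limma) and without replicate A for GAP-2/3 (adjusted p = 0.0554, limma).

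Srsf10, an SR protein that acts as a repressor when dephosphorylated, had 62.4 and 63.1 FPKM in GAP-2, 67.3 and 60.1 FPKM in GAP-2/3, and 51.5 and 42.6 FPKM in GAP-scr. The gapmer groups again overlapped each other and not the controls. It rose by 0.41 ± 0.12 in GAP-2 (adjusted p = 0.0396, limma) and by 0.43 ± 0.12 in GAP-2/3 (adjusted p = 0.0149, limma). The GAP-2 call was lost under both scalings and without any single library other than GAP-scr replicate A. The GAP-2/3 call was lost with a common median (adjusted p = 0.065, limma). Srsf1, the founding member of the family, had 64.6 and 65.8 FPKM in GAP-2, 70.3 and 62.5 FPKM in GAP-2/3, and 53.3 and 50.9 FPKM in GAP-scr. It too was similar in the gapmer groups, with 0.34 ± 0.11 in GAP-2/3 (adjusted p = 0.026, limma) and 0.32 ± 0.11 in GAP-2 (adjusted p = 0.0672, limma). Under both scalings the GAP-2/3 call of Srsf1 was lost.

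Srsf5 behaved otherwise. It was the most abundant SR gene, with 261 and 242 FPKM in GAP-2, 334 and 320 FPKM in GAP-2/3, and 250 and 234 FPKM in GAP-scr. GAP-2 overlapped the controls and GAP-2/3 stood above all other libraries. Srsf5 rose by 0.43 ± 0.10 in GAP-2/3 (adjusted p = 0.00806, limma), with 0.06 ± 0.10 in GAP-2. Sfrs18, called Pnisr in RefSeq and an arginine/serine-rich nuclear protein rather than a classical SR protein, had 21.0 and 19.9 FPKM in GAP-2, 25.4 and 25.4 FPKM in GAP-2/3, and 19.9 and 17.1 FPKM in GAP-scr, and rose by 0.44 ± 0.12 in GAP-2/3 (adjusted p = 0.0113, limma). Srsf7 rose by 0.34 ± 0.12 in GAP-2/3 (adjusted p = 0.0404, limma), a call lost under both scalings, with 0.19 ± 0.12 in GAP-2.

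Srsf2, Srsf4, Srsf6, Srsf9 and Srsf11 passed in no contrast. Srsf2, which binds exonic enhancers and overlaps Mfsd11, had 96.2 and 100 FPKM in GAP-2, 95.0 and 97.3 FPKM in GAP-2/3, and 100 and 89.2 FPKM in GAP-scr, all groups overlapping. Srsf9 was below both controls in all 4 gapmer libraries, with 28.7 and 28.8 FPKM in GAP-2, 24.1 and 29.5 FPKM in GAP-2/3, and 31.5 and 32.4 FPKM in GAP-scr. Its change of -0.25 ± 0.12 in GAP-2/3 did not pass (adjusted p = 0.112, limma) but was called lower with a common median and with quantile normalization.

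Among the snRNP proteins the U2 protein Snrpb2 moved most. Snrpb2, which with Snrpa1 binds the U2 RNA, had 63.0 and 68.2 FPKM in GAP-2, 83.9 and 71.4 FPKM in GAP-2/3, and 54.7 and 49.5 FPKM in GAP-scr, a stepwise order with no overlap. It rose by 0.56 ± 0.12 in GAP-2/3 (adjusted p = 0.00368, limma), a call lost without GAP-2/3 replicate A (adjusted p = 0.0602, limma), and had 0.33 ± 0.12 in GAP-2 (adjusted p = 0.081, limma). Its partner Snrpa1 had 20.01 and 25.1 FPKM in GAP-2, 23.6 and 23.7 FPKM in GAP-2/3, and 21.4 and 21.6 FPKM in GAP-scr, and did not pass. The U1 proteins Snrpa and Snrpc did not pass either, with changes of -0.32 ± 0.13 and -0.18 ± 0.11 in GAP-2 and of -0.11 ± 0.13 and -0.15 ± 0.11 in GAP-2/3.

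Of the 7 Sm ring genes 1 passed. Snrpd1 had 59.3 and 69.8 FPKM in GAP-2, 83.6 and 69.1 FPKM in GAP-2/3, and 51.2 and 56.2 FPKM in GAP-scr, and rose by 0.50 ± 0.13 in GAP-2/3 (adjusted p = 0.0106, limma), with 0.26 ± 0.13 in GAP-2. With a common median the GAP-2/3 call was lost (adjusted p = 0.0568, limma). The most abundant snRNP genes were Snrpe and Snrpg. Snrpe had 289 and 303 FPKM in GAP-2, 376 and 291 FPKM in GAP-2/3, and 251 and 304 FPKM in GAP-scr, with all groups overlapping. Snrpg had 258 and 257 FPKM in GAP-2, 270 and 272 FPKM in GAP-2/3, and 215 and 250 FPKM in GAP-scr, and its changes of 0.15 ± 0.11 in GAP-2 and 0.22 ± 0.11 in GAP-2/3 did not pass.

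Some ring genes went the other way or were too uneven to place. Snrpb was lower than both controls in all 4 gapmer libraries, with 138 and 133 FPKM in GAP-2, 132 and 152 FPKM in GAP-2/3, and 156 and 158 FPKM in GAP-scr, and a change of -0.18 ± 0.09 in the mean of both that did not pass (adjusted p = 0.155, limma) and was called lower with a common median. Snrpd2 lay below the controls in GAP-2, at 147 and 159 FPKM, and above them in GAP-2/3, at 177 and 175 FPKM, with 165 and 161 FPKM in GAP-scr. That difference between gapmer groups, 0.20 ± 0.10, did not pass (adjusted p = 0.233, limma). Snrpf was uneven within GAP-scr, where replicate A was at 0.570 of replicate B, with 77.8 and 75.7 FPKM in GAP-2, 81.6 and 70.2 FPKM in GAP-2/3, and 64.8 and 114 FPKM in GAP-scr. Snrpn, a paralog of Snrpb from an imprinted locus, was the gene with the lowest level, at 2.55 and 3.36 FPKM in GAP-2, 2.15 and 2.37 FPKM in GAP-2/3, and 2.27 and 2.51 FPKM in GAP-scr. It shares its transcription unit with Snurf, listed at 1.24 to 2.45 FPKM, so the values of the pair may not be separate.

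Of the 8 SF3 genes 2 were higher and 2 lower in GAP-2/3 (25% each), against 28.0% higher and 11.3% lower over all genes tested. Sf3a2, a subunit of the SF3a trimer that joins the U2 snRNP, had 18.9 and 17.9 FPKM in GAP-2, 12.6 and 15.3 FPKM in GAP-2/3, and 23.0 and 19.3 FPKM in GAP-scr. The gapmer libraries were all below the controls, GAP-2/3 the lowest. It fell by 0.57 ± 0.13 in GAP-2/3 (adjusted p = 0.00605, limma), to 0.673 of the control on that scale, and had a change of -0.19 ± 0.13 in GAP-2. The GAP-2/3 call was lost without GAP-2/3 replicate A (adjusted p = 0.0836, limma). The call in the mean of both groups, -0.38 ± 0.11 (adjusted p = 0.0238, limma), was lost when replicate B of GAP-2, replicate A of GAP-2/3, replicate A of GAP-scr or the pair high in Rn45s was left out.

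Sf3b4, which contacts RNA next to the branch point, had 29.5 and 25.6 FPKM in GAP-2, 21.0 and 22.7 FPKM in GAP-2/3, and 29.5 and 28.5 FPKM in GAP-scr. GAP-2 overlapped the controls and GAP-2/3 lay below them. It fell by 0.39 ± 0.11 in GAP-2/3 (adjusted p = 0.0185, limma), a call lost without GAP-2/3 replicate A (adjusted p = 0.128, limma) and without the pair high in Rn45s (adjusted p = 0.069, limma). Sf3a1 was below both controls in every gapmer library, with a change of -0.29 ± 0.12 in GAP-2/3 that did not pass (adjusted p = 0.0816, limma) and was called lower under both scalings.

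Other subunits of the same complex rose. Sf3b1, the large scaffold of SF3b and its most abundant subunit, had 75.9 and 83.8 FPKM in GAP-2, 94.4 and 86.6 FPKM in GAP-2/3, and 72.9 and 70.4 FPKM in GAP-scr, and rose by 0.33 ± 0.11 in GAP-2/3 (adjusted p = 0.0297, limma). Sf3b3, a scaffold subunit that overlaps Cog4, had 61.0 and 64.7 FPKM in GAP-2, 68.1 and 78.0 FPKM in GAP-2/3, and 55.7 and 53.7 FPKM in GAP-scr, and rose by 0.41 ± 0.11 in GAP-2/3 (adjusted p = 0.0134, limma). In both genes the gapmer libraries were all above the controls. Sf3b2, the next most abundant subunit, had 72.9 and 72.0 FPKM in GAP-2, 59.8 and 74.0 FPKM in GAP-2/3, and 74.2 and 60.8 FPKM in GAP-scr, with all groups overlapping. Sf3a3 had 0.28 ± 0.11 in GAP-2/3 (adjusted p = 0.0507, limma), and Sf3b5 had -0.04 ± 0.16. With a common median the calls of Sf3b1 and Sf3b3 were lost and 0 SF3 genes were higher and 3 lower in GAP-2/3. Over all 10993 genes tested 1928 were then higher and 1789 lower.

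**Figure D4:**
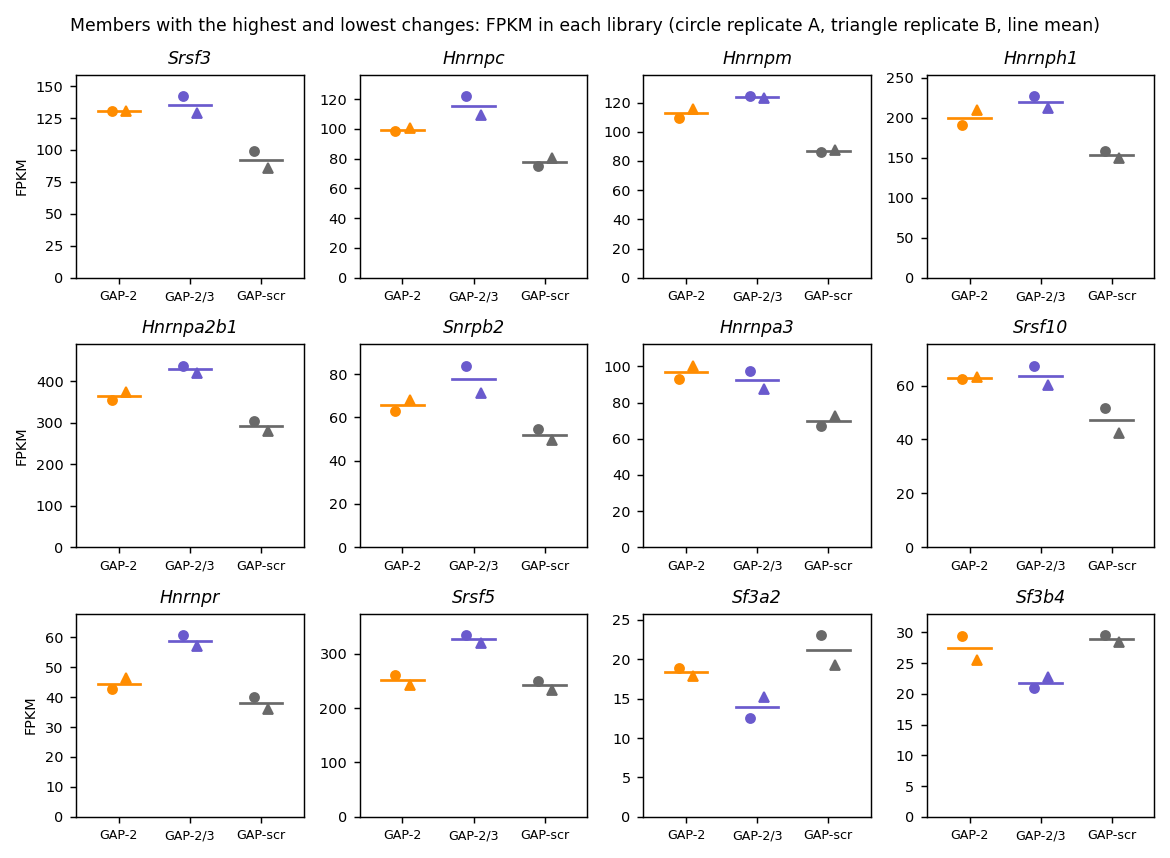
FPKM in each library for 12 genes with the largest changes or with a difference between the gapmer groups; GAP-2 and GAP-2/3 stand left of GAP-scr, circles are replicate A, triangles replicate B and lines the mean of 2 libraries, and every axis starts at 0. Srsf3, Hnrnpa3 and Srsf10 are alike in both gapmer groups, Hnrnpr and Srsf5 are highest in GAP-2/3, and Sf3a2 and Sf3b4 are lowest there.

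GAP-2/3 was also set against GAP-2. Here 2 of the 51 genes were higher and 0 lower (3.92% higher), against 6.5% higher and 3.65% lower over all genes tested. Hnrnpr, a relative of the RNA-binding protein Syncrip, had 60.6 and 57.2 FPKM in GAP-2/3, against 42.7 and 46.3 FPKM in GAP-2 and 40.2 and 36.0 FPKM in GAP-scr. It was higher in GAP-2/3 than in GAP-2 by 0.40 ± 0.11 (adjusted p = 0.0422, limma) and higher in GAP-2/3 than in GAP-scr by 0.62 ± 0.11 (adjusted p = 0.00165, limma), the largest change of the 51 genes in that group. The other gene was Srsf5, with 0.38 ± 0.10 (adjusted p = 0.0424, limma). Both calls between the gapmer groups were lost under either scaling and without any one of the 4 gapmer libraries, and proliferation markers, of which 4 of 10 were higher in GAP-2/3 than in GAP-2, moved in the same direction. Their part in these differences was not tested.

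The promoters of 4 genes are shown. Those of Srsf3, Hnrnpc and Hnrnpm come from the 6 genes called higher in both gapmer groups. That of Sf3a2 belongs to the 1 gene called lower in the mean of both. Each is the RefSeq window of GRCm38.p6 from 250 bases before to 50 after the transcription start, written 5′ to 3′ on the strand of the gene. They lie at chr17:29032410-29032709 on the plus strand (Srsf3), chr14:52103972-52104271 on the minus strand (Hnrnpc), chr17:33685409-33685708 on the minus strand (Hnrnpm) and chr10:80798485-80798784 on the plus strand (Sf3a2). Capitals mark every match, on either strand, to the motifs searched.
Srsf3: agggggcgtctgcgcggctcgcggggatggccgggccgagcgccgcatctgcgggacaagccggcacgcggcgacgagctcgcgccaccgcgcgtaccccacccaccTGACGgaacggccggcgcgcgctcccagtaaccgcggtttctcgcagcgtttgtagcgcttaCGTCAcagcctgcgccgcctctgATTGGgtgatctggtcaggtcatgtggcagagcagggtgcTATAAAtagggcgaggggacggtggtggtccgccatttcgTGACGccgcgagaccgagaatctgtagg
Hnrnpc: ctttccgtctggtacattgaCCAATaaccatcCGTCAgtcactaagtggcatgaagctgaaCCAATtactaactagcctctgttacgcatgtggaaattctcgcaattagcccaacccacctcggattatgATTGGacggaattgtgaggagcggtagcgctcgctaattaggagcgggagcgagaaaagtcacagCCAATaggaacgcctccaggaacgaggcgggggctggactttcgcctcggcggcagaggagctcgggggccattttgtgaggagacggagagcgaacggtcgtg
Hnrnpm: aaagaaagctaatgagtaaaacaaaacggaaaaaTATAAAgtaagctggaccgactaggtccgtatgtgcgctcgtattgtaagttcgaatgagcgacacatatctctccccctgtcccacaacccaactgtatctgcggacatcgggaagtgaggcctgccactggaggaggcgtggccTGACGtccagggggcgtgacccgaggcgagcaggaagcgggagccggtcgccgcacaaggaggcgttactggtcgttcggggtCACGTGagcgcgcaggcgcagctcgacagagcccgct
Sf3a2: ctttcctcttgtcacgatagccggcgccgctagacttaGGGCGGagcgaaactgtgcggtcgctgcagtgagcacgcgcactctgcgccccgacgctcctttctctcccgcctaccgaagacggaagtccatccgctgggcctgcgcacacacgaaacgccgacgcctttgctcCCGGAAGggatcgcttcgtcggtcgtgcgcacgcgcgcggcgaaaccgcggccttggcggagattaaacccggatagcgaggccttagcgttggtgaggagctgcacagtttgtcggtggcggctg

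The motifs were CCAAT (the CCAAT box), TGACG (a cyclic AMP response element half-site), CCGGAAG (an ETS factor core), GGGCGG (the GC box bound by Sp1), CACGTG (an E-box), GCATGCGC (part of an NRF1 site), TATAAA (the TATA box), TCTCGCGA (an element of housekeeping promoters) and AAGATGG (the YY1 core), none of which contains another. In these windows Hnrnpc held 4 CCAAT boxes and 1 TGACG, Srsf3 held 1 CCAAT box, 1 TATAAA and 3 TGACG, and Hnrnpm held 1 TATAAA, 1 TGACG and 1 CACGTG. Sf3a2 held 1 CCGGAAG and 1 GGGCGG. The other genes called higher in both gapmer groups, Hnrnpa3, Hnrnph1 and Srsf10, are not shown, and unlike Srsf3, Hnrnpc and Hnrnpm they held GGGCGG. Hnrnpa3 held 2 CCAAT boxes, 1 TGACG, 3 GGGCGG and 1 CACGTG. Srsf10 held 1 CCAAT box, 1 TGACG, 3 GGGCGG and 2 TCTCGCGA, the last being overlapping matches on opposite strands of the same stretch. Hnrnph1, with several windows, held GGGCGG in each. The table had promoters for 44 of the 51 genes. A CCAAT box was found in 23 of these 44 genes (52.3%), against 43.6% of the 8276 tested genes with a promoter, and TGACG in 23 (52.3%), against 37%. CCGGAAG was found in 15 (34.1%), against 21.2%, and GGGCGG in 31 (70.5%), against 71.3%. Of the 13 genes called higher in the mean of both groups that had a promoter in the table, 10 held a CCAAT box, 10 TGACG, 8 GGGCGG and 2 CCGGAAG. The same shares were not computed over all genes called higher, so these counts have no background of their own. Over all 32851 promoters of the table the shares were 37.4% for CCAAT, 20.8% for TGACG, 8.86% for CCGGAAG, 35.7% for GGGCGG, 7.15% for CACGTG, 2.71% for GCATGCGC, 13.6% for TATAAA, 0.995% for TCTCGCGA and 6.34% for AAGATGG. A match describes letters and does not show a bound site.

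Splicing factors outside the symbol rule were taken from lists that hold the other parts of the machinery, 134 tested genes in all. In the mean of both gapmer groups 36 were higher and 9 lower (26.9% and 6.72%), near the 24.5% and 9.57% of all genes tested, and with a common median 17 were higher and 16 lower. Over all 10993 genes tested the common median gave 1618 higher and 1556 lower. The median change of the 134 genes was 0.13. GAP-2 had 10 higher and 1 lower (7.46% and 0.746%), against 10.4% and 4.18% of all genes. GAP-2/3 had 39 higher and 8 lower (29.1% and 5.97%), against 28.0% and 11.3%. The Prp19 complex and catalytic factors had 9 of 22 higher and 0 lower in the mean, among them Snw1, a component of the active spliceosome, at 0.48 ± 0.10 (adjusted p = 0.00493, limma). Proteins of the minor spliceosome, which removes a rare class of introns, had 5 of 10 higher and 0 lower, and assembly factors of the snRNPs had 5 of 17 higher and 0 lower, including Ddx20 (Gemin3) at 0.55 ± 0.10 (adjusted p = 0.00255, limma). With a common median these lists had 3 higher and 1 lower (Prp19 complex and catalytic factors), 3 higher and 0 lower (minor spliceosome) and 2 higher and 3 lower (snRNP assembly).

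Lists closest to the SR and hnRNP families were mixed. Of 12 SR-related proteins 3 were higher and 2 lower in the mean of both groups (25% and 16.7%), against 24.5% and 9.57% of all genes tested. With a common median 2 were higher and 2 lower. Tra2a, a splicing activator of the Tra2 pair, had 87.4 and 87.9 FPKM in GAP-2, 89.1 and 81.7 FPKM in GAP-2/3, and 68.0 and 53.1 FPKM in GAP-scr. It rose by 0.54 ± 0.13 in GAP-2 (adjusted p = 0.0172, limma) and by 0.50 ± 0.13 in GAP-2/3 (adjusted p = 0.00981, limma), without overlap with the controls. Scaf1, an SR-related factor that binds the tail of RNA polymerase II, fell by 0.51 ± 0.11 in the mean (adjusted p = 0.00692, limma). Of 9 kinases and carriers of SR proteins 3 were higher and 1 lower (33.3% and 11.1%), and with a common median 1 and 1. Clk1, which phosphorylates SR proteins in the nucleus, rose by 0.40 ± 0.11 (adjusted p = 0.0166, limma). Srpk3, the muscle SR protein kinase, fell by 0.40 ± 0.10 (adjusted p = 0.0112, limma). Srpk3 had 17.5 and 19.2 FPKM in GAP-2, 22.8 and 21.8 FPKM in GAP-2/3, and 25.3 and 28.7 FPKM in GAP-scr, and its direction was that of the myotube markers, whose part in its change was not tested.

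Among 15 hnRNP-like proteins not named Hnrnp, 3 were higher and 2 lower in the mean of both groups (20% and 13.3%), against 24.5% and 9.57% of all genes tested. With a common median 1 was higher and 3 were lower. Rbm3, a cold-inducible RNA-binding protein, had 406 and 425 FPKM in GAP-2, 408 and 344 FPKM in GAP-2/3, and 294 and 230 FPKM in GAP-scr, and rose by 0.60 ± 0.12 (adjusted p = 0.00326, limma). Syncrip rose by 0.38 ± 0.11 (adjusted p = 0.0184, limma). Other U1, U2 and U2AF factors had 3 of 18 higher and 2 lower, the tri-snRNP 2 of 16 higher and 1 lower, the LSm ring 1 of 6 higher and 0 lower, and the exon junction complex 2 of 9 higher and 1 lower. With a common median the U1, U2 and U2AF factors had 2 higher and 4 lower. The tri-snRNP and the exon junction complex then each had 1 higher and 1 lower, and the LSm ring 1 and 0. In the exon junction complex Magohb rose by 0.63 ± 0.11 (adjusted p = 0.00209, limma), while Eif4a3, its RNA helicase core, fell by 0.29 ± 0.10 (adjusted p = 0.0407, limma).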

How the data were processed

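Polyadenylated RNA was prepared with a stranded kit, per the labels' protocols. The deposited table holds FPKM, scaled by the authors, with 1 column per library. Tools named in the submitters' processing notes, without roles or versions, are Trimmomatic and cutadapt, TopHat2 and Bowtie2, Cuffdiff and Cufflinks, MACS, bedtools, FastQC and CASAVA, and the build named is mm9. The deposited ChIRP peak list gives the authors' score per peak, which was not used in any test.

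Genes averaging at least 1 FPKM (10993) were put on the log2(FPKM + 1) scale without other scaling and fitted with limma 3.58.1 in R 4.3.3 (intensity trend, 3 groups together, no covariate). Benjamini-Hochberg adjustment ran over every gene tested, with a threshold of 0.05. This scale understates changes of weakly expressed genes. Read counts were not recovered, so no counting error is given. The fit was run on simulated data with independent errors and no shift of whole libraries, so that run cannot speak to such shifts in the real data. Of the 51 members 48 matched RefSeq by symbol and 3 by an older symbol.

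Members and lists were chosen with earlier results of these data known. Values in every library were given for the 5 highest and 5 lowest changes past the threshold in each contrast, the 2 most abundant genes of each family and Snrpn. Values of further members were added after they were seen. Of each list of other splicing factors up to 3 genes with the smallest p were named. The alternatives tried were a filter at 5 FPKM or none, a pseudocount of 0.1, a common median, quantile normalization, no trend, the replicate block, only the libraries compared, a threshold of 0.1 and leaving out libraries.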

Additional observations from a re-analysis of the deposited data

Results flagged for a closer look

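The gapmer groups differed from each other in 2 of the 51 genes by a test of the difference itself, 3.92% of them, against 6.5% higher and 3.65% lower over all genes tested. Hnrnpr was higher in GAP-2/3 than in GAP-2 by 0.396 on the log2(FPKM + 1) scale (adjusted p = 0.0422, limma), and all 4 gapmer libraries exceeded both GAP-scr libraries. Srsf5 was higher in GAP-2/3 than in GAP-2 by 0.378 (adjusted p = 0.0424, limma), while its GAP-2 libraries overlapped GAP-scr. Both calls were lost under either scaling and without any one of the 4 gapmer libraries, and 8 of 16 alternatives passed for Hnrnpr and 9 of 16 for Srsf5.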

How the results depend on the processing

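The changes of single members followed here numbered 20, with some genes counted in more than 1 contrast. They were chosen as the largest changes past the threshold, so a reversal was unlikely beforehand, and 0 reversed under any alternative. Of their values under alternatives that did not leave out a single library, 180 kept their side of the threshold and 20 lost it, and with single libraries left out 87 kept it and 33 lost it. The 180 include the threshold of 0.1 on the same fit, which all 20 changes were bound to pass by their selection. With libraries scaled to a common median, members called higher numbered 9 in the mean of both groups, 1 in GAP-2, 9 in GAP-2/3 and 0 between the gapmer groups, and members called lower 5 in the mean and 5 in GAP-2/3. Over all 10993 genes tested that scaling gave 1618 higher and 1556 lower in the mean, and 1928 and 1789 in GAP-2/3. The mean then had 2 SR members higher and 1 lower, 1 snRNP member higher and 1 lower, and 0 SF3 members higher and 3 lower. With quantile normalization 3 members were lower in the mean and 5 in GAP-2/3, 0 were higher between the gapmer groups, 2 SR members were higher, and 0 SF3 members were higher and 3 lower. Over all genes tested that normalization gave 1695 lower in the mean and 1960 lower in GAP-2/3. Without the pair of libraries high in Rn45s, GAP-2 had 3 higher and 1 lower and GAP-2/3 against GAP-2 had 1 higher and 1 lower. The mean then had 2 SR members higher, 1 snRNP member higher and 1 lower, and 0 SF3 members higher and 0 lower. At a threshold of 0.1 the mean had 3 members lower, GAP-2 had 10 higher, GAP-2/3 against GAP-2 had 1 lower, and 3 SF3 members were higher and 3 lower. With only the libraries of the groups compared GAP-2 had 2 higher and GAP-2/3 against GAP-2 had 2 lower. Without the intensity trend 0 were higher between the gapmer groups. With the replicate block GAP-2/3 against GAP-2 had 1 member lower, and the counts were 15 higher and 1 lower in the mean, 6 and 0 in GAP-2, and 19 and 2 in GAP-2/3. The differences between replicates A and B correlated across genes at -0.18 between GAP-2 and GAP-2/3, 0.36 between GAP-2 and GAP-scr and -0.13 between GAP-2/3 and GAP-scr, and since not every pair of groups exceeded 0.1 the letters were not taken to pair the libraries. GAP-2 and GAP-scr, the groups at 0.36, are those whose replicate A is high in Rn45s. The cause of these shifts was not tested.

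Leaving out each library in turn, members called higher ranged from 9 to 16 in the mean, from 0 to 10 in GAP-2, from 5 to 20 in GAP-2/3 and from 0 to 3 between the gapmer groups. Members called lower ranged from 0 to 1 in the mean, from 0 to 2 in GAP-2, from 0 to 3 in GAP-2/3 and from 0 to 2 between the gapmer groups. In the mean the higher counts ranged from 6 to 8 in the hnRNP family, 1 to 5 in the SR family, 1 to 3 in the snRNP proteins and 0 to 2 in the SF3 subunits, and the lower counts from 0 to 1 in the snRNP proteins and 0 to 1 in the SF3 subunits. With 2 libraries a group and unknown depth, changes near 0.3 on the log2 scale lay on either side of the threshold.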
